A study of Mus musculus with 9 samples.

Results

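The cytosolic ribosomal proteins are the proteins of the large and the small subunit of the ribosome that translates nuclear mRNAs. Their genes were chosen by symbol, from the prefixes Rpl, Rplp, Rps and Rpsa followed by the number of the protein, and 85 of the 26214 genes in the table match. Of these, 52 belong to the large subunit and 33 to the small subunit. No measured value entered the rule, but earlier results of these data were known when the members were chosen.

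RNA was sequenced from sorted stromal cells of male C57Bl/6 J mice aged 8 to 12 weeks, 1 day after an injection into the right quadriceps. The series compares adipose stromal cells (ASCs) with fibro-adipogenic progenitors (FAPs), the stromal progenitors of muscle, before and after injury. The methods describe cells depleted of CD45 and CD31 on magnetic beads and then selected for Sca-1, with triplicates made from a pool of cells of 3 animals, so the p-values measure only the spread between these samples. A library of CD31+CD45+ cells stands beside them and entered no test.

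The groups differ in tissue and injection. ASCs came from subcutaneous adipose tissue of wild-type C57Bl/6 mice after NaCl (3 libraries). FAPs came from quadriceps of such mice after NaCl (2 libraries), and injured FAPs from quadriceps after 50% glycerol (3 libraries), which damages muscle fibres. The CD31+CD45+ cells came from quadriceps after glycerol (1 library). All were taken on day 1, and no allele or transgene is given for any group. In ASCs against FAPs the tissue and the cell type cannot be told apart.

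Reads on genes numbered 27481573, 27349184 and 27402102 in ASCs 1 to 3. FAPs 1 and 2 held 24052508 and 24164447 reads. Injured FAPs 1 to 3 held 26968235, 26698572 and 27028114, and the CD31+CD45+ library held 13091077. The deposited value of a gene is its read count divided by a size factor of the library, and 3 reads were worth between 2.29 and 4.71 on that scale. The 8 libraries of the tested groups are of similar depth, and the CD31+CD45+ library is the shallowest. Orders and overlaps of libraries are given on the deposited scale throughout.

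Each ribosome holds a single copy of nearly every ribosomal protein, with the acidic stalk proteins Rplp1 and Rplp2 as the known exception. Vertebrate mRNAs of these proteins begin with a 5′ terminal oligopyrimidine tract (TOP), a run of C and T in the DNA through which the kinase complex mTORC1 and the RNA-binding protein Larp1 control their translation, so the amount of mRNA and its use can move apart. A few members have paralogs with their own tissue pattern, and most have processed pseudogenes, which are near copies of the mRNA elsewhere in the genome.

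Of the 85 members, 80 had a mean of at least 10 over the 8 libraries and were tested (47 of the large and 33 of the small subunit), 78 had a mean of at least 100 and 74 a mean over 1000. The other 5 were not tested. Rpl26, a large subunit protein at the exit of the peptide tunnel, and Rpl10l, a copy of Rpl10 known from testis, were listed at 0 in all 9 libraries, which allows up to 3 reads in each. Rpl3l, Rpl30 and Rpl32l were below the mean. Rpl30 had values of 6.59, 4.53 and 1.26 in ASCs, 5.71 and 0 in FAPs, 7.85, 16.3 and 14.5 in injured FAPs and 4.71 in CD31+CD45+ cells. Rpl26 and Rpl30 are core ribosomal proteins, and 22.1% and 45.3% of their read-length windows also occur in another annotated gene. Rpl10, with 91.3% of its windows shared, had 19446 deposited units per kb of transcript in ASCs. The values of Rpl26 and Rpl30 are uncertain as levels of the genes, and their cause was not tested.

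Read assignment is uncertain for much of the family. Windows of read length along the transcripts were looked up in all other annotated transcripts, and 72 of the 85 members share at least 1 window with another gene, 27 share at least 50% of them and 21 share under 10%. The GENCODE annotation holds 293 named pseudogenes for 61 of the members. The table lists 10 pseudogenes named after members, of which Rplp2-ps1 and Rps18-ps4 are not in that annotation under these names. Rps4l and Rpl32l are themselves annotated as pseudogenes. The sources used here name neither the strand setting used in counting nor what was done with reads that match several genes. Members that share over 50% of their windows and are described here are Rps27 (98.2%, nearly all in Rps27rt, which is listed at 0), Rpl10 (91.3%), Rps12 (88.1%), Rpl3 (74.9%), Rps27a (67.6%) and Rps2 (58.01%). Apart from shared sequence, 14 members overlap an exon of a neighbouring gene, 4 of them on the same strand: Rpl24 (71.5% of its exon bases), Rpl13a (59.3%), Rps10 (53.6%) and Rpl19 (10.7%), named after their values were seen.

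The starts of the genes were searched for a sequence that the choice by symbol did not use. Promoter sequences from RefSeq (GRCm38.p6) were matched by symbol for 64 of the 85 members, with 76 promoters in all, each running from 250 bases before to 50 bases after the annotated start. There was no entry for the other 21 members. The windows here hold 10 bases before the start and 20 from it, with the longest run of C and T in capitals, for members described below, with long and short runs. They are shown because that run is the feature read by the TOP pathway when it lies at the first base of the mRNA.
Rps12: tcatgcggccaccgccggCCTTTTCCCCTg
Rpl22l1: gcgcaagcccgTTCTCTTCCCacggctgca
Rplp2: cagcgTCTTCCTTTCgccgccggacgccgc
Rps15a: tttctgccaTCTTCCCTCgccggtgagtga
Rps27: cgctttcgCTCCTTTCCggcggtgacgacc
Rplp0: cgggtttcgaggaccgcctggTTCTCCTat
Rps27l: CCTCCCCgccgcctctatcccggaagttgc
Rpl39l: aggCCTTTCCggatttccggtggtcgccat
Rps2: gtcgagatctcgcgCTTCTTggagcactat
Rpsa: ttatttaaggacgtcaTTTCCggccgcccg
Rpl22: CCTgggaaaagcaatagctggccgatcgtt
Rps3a1: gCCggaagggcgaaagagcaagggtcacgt
Rpl34: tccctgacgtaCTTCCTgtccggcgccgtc
Rps4x: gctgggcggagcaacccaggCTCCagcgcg
Rpl10: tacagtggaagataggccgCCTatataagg
Rps15: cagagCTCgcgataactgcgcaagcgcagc
Rpl41: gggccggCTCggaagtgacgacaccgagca

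These windows lie at chr10:23787190-23787219 (minus strand) for Rps12, chr3:28805498-28805527 (plus) for Rpl22l1, chr7:141447641-141447670 (plus) for Rplp2 and chr7:118116128-118116157 (minus) for Rps15a. Those of Rps27 and Rplp0 lie at chr3:90213629-90213658 (minus) and chr5:115559457-115559486 (plus). Those of Rps27l, Rpl39l and Rps2 lie at chr9:66946076-66946105, chr16:10170218-10170247 and chr17:24720053-24720082 (all plus). Those of Rpsa, Rpl22 and Rps3a1 lie at chr9:120127756-120127785 (plus), chr4:152325716-152325745 (plus) and chr3:86142649-86142678 (minus). Those of Rpl34, Rps4x and Rpl41 lie at chr3:130730379-130730408, chrX:102189372-102189401 and chr10:128549149-128549178 (all minus), and those of Rpl10 and Rps15 at chrX:74270806-74270835 and chr10:80292421-80292450 (plus).

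The longest run was 11 bases in Rps12, 10 in Rpl22l1 and Rplp2, and 9 in Rps15a and Rps27, against 3 in Rpl10, Rps15, Rpl41 and Rpl22 and 2 in Rps3a1, so a long run was not common to these windows. Whether the annotated starts are the first bases of the mRNAs was not tested. A run of 8 or more in the window was found in 25 of the 76 member promoters (32.9%) and in 11.2% of the 32851 promoters of the table, and the median run was 6 against 4. Among the 60 tested members with an entry, the 24 with such a run had a median log2 fold change of 1.16 in ASCs against FAPs and the 36 without it 1.10, and 1.34 and 1.26 in injured FAPs against FAPs. The difference between these medians was not tested.

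Letters of 5 short motifs were searched on both strands of the 76 promoters, with no overlap between matches of different motifs. CTTTCC was in 48.7% of the member promoters and 26.6% of all promoters. CCGGAAG, the core bound by ETS factors, was in 35.5% and 8.86%. TCTCGCGA was in 15.8% of the member promoters and 0.995% of all.

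The remaining motifs were nearer to all promoters. CACGTG, the E-box of Myc, was in 10.5% of the member promoters and 7.15% of all, and TATAAA in 10.5% and 13.6%. The 25 tested members with CCGGAAG had a median log2 fold change of 1.46 in injured FAPs against FAPs and the 35 without it 1.22. In ASCs against FAPs these medians were 1.10 and 1.13. For CTTTCC the gap ran the other way, with 1.23 in the 31 members that hold it and 1.36 in the 29 without it for injured FAPs, and 1.09 and 1.20 for ASCs. For TCTCGCGA, in 10 members, the medians with and without it were 1.37 and 1.27 for injured FAPs, and 1.21 and 1.10 for ASCs, each against FAPs. CACGTG and TATAAA were in 6 and 7 tested members, with medians of 1.37 and 1.36 against 1.29 and 1.28 without them in injured FAPs against FAPs. None of these gaps was tested. Each match is a description of letters, and binding was not measured.

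Members also share gene structure and place. Of the 83 protein-coding members, 30 (36.1%) hold at least 1 snoRNA gene on their own strand, with 58 snoRNA genes in all, against 213 of the 12860 protein-coding genes tested (1.66%). Rpl4 holds 5. Most snoRNAs guide the chemical modification of ribosomal RNA. The median transcript was 789.5 bases long in the members tested and 2880.0 in the 13347 genes tested with a length. The genes lie on 19 chromosomes, with 14 of them on chromosome 7.

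The members took 2.01%, 2.17% and 1.79% of the reads on genes in ASCs 1 to 3 (mean 1.99% ± 0.191, SD, n = 3). They took 1.44% and 1.28% in the FAP libraries (mean 1.36% ± 0.110, SD, n = 2) and 3.59%, 3.48% and 3.75% in injured FAPs (mean 3.61% ± 0.139, SD, n = 3). In the CD31+CD45+ library the share was 1.70%, with an exact Clopper-Pearson 95% interval of 1.697% to 1.711%, which covers counting error only. Every injured FAP library was above every ASC library and every ASC library above both FAP libraries. A share depends on all other genes: without the 100 most abundant other genes the means were 3.33%, 2.05% and 4.71% in the same order of groups and 1.89% in CD31+CD45+ cells.

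Both subunits moved together in these shares. The large subunit took 1.18% in ASCs, 0.818% in FAPs and 2.12% in injured FAPs, and the small subunit 0.806%, 0.541% and 1.49%. The ratio of the large to the small subunit was 1.48, 1.47 and 1.45 in ASCs, 1.51 and 1.51 in FAPs, 1.41, 1.44 and 1.43 in injured FAPs and 1.47 in CD31+CD45+ cells. The ratio was highest in the FAP libraries and lowest in the injured FAP libraries, with no overlap among the 3 groups, and it spans a narrow range.

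**Figure D1:**
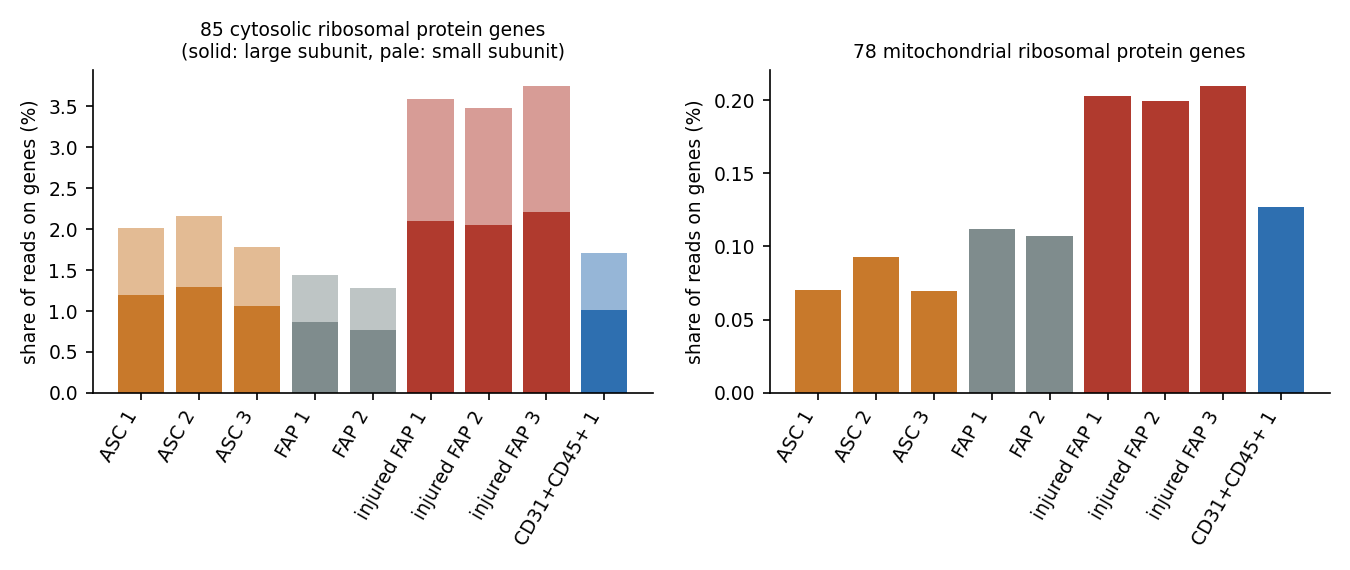
Share of reads on genes (%, bars from 0) in each of the 9 libraries for the 85 cytosolic ribosomal protein genes (left, solid large subunit and pale small subunit) and for 78 mitochondrial ribosomal protein genes (right). The cytosolic share lay between 3.48% and 3.75% in injured FAPs, between 1.79% and 2.17% in ASCs and at 1.28% and 1.44% in FAPs, and the mitochondrial share was lowest in ASCs. Both shares depend on all other genes in a library.

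The level of single members was compared per kb of transcript. The median member had 8951, 8512 and 7547 deposited units per kb in ASCs, 4132 and 3553 in FAPs, 9102, 8801 and 9777 in injured FAPs and 4687 in the CD31+CD45+ library. The members did not have equal mRNA levels. Their 90th percentile was 8.74 to 13.2 times the 10th percentile in each library.

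Rplp1, an acidic protein of the stalk that binds elongation factors, had the highest value per kb in every group, with 40299.7 in ASCs, 24774.5 in FAPs, 49096 in injured FAPs and 19997 in CD31+CD45+ cells. Next in ASCs came Rps15 of the small subunit head with 29348 per kb, Rplp0, which anchors the stalk, with 26223, and Rpl41, the shortest ribosomal protein, with 24305. In injured FAPs the next were Rpl41 (30867), Rpsa (28491) and Rplp0 (28077). The lowest tested members per kb over the 8 libraries were Rpl34, Rps27 and Rpl39l, with 75.8, 146 and 151. The length used is that of 1 annotated transcript per gene, so these levels carry the error of that choice.

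**Figure D2:**
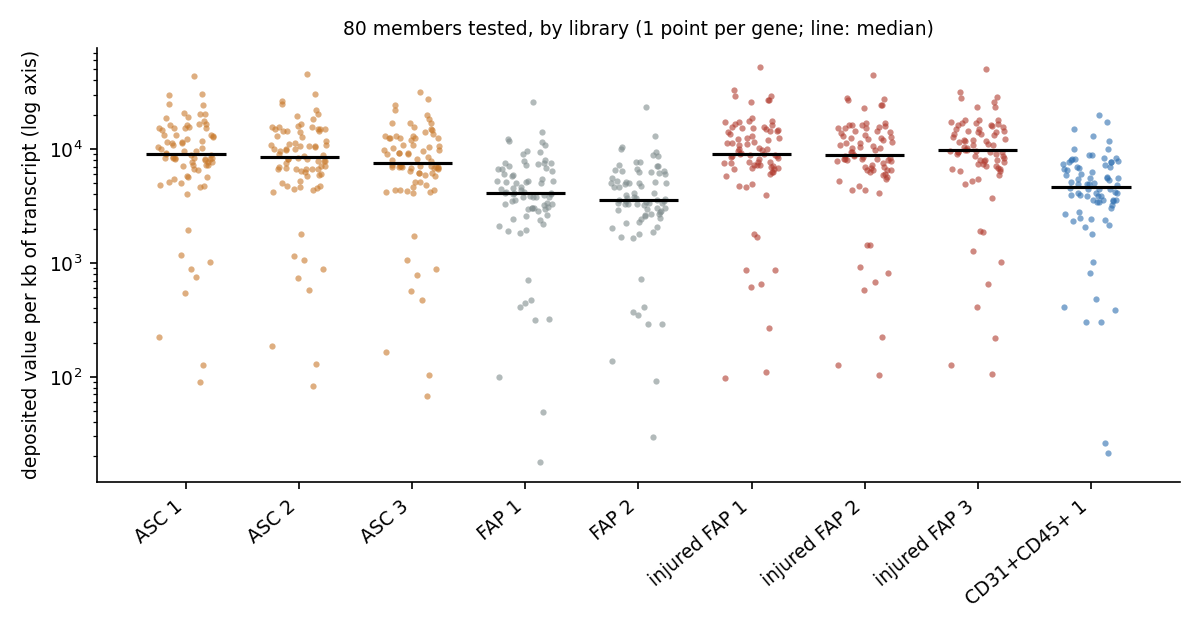
Deposited value per kb of transcript (log axis) of the 80 members tested in each of the 9 libraries, with 1 point per gene and a line at the median. The medians lay between 7547 and 8951 in ASCs, at 3553 and 4132 in FAPs and between 8801 and 9777 in injured FAPs.

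The order of the members was much the same between groups. Across the 80 members tested, the mean log2 values of ASCs and FAPs had a Pearson r of 0.994, those of ASCs and injured FAPs 0.988 and those of FAPs and injured FAPs 0.983, and those of CD31+CD45+ cells had r of 0.941 to 0.976 with the other groups. These are correlations across genes within the same libraries, and genes are not independent replicates. Within a group the median member varied by a coefficient of variation of 9.67% in ASCs, 8.09% in FAPs and 6.40% in injured FAPs, beside 15.9%, 7.42% and 7.41% for all genes tested.

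The comparison of ASCs with FAPs addresses how stromal cells of adipose tissue and muscle differ without injury. A gene was called when limma gave an adjusted p under 0.05, over all 13601 genes tested, and a log2 fold change beyond 0.58 either way. On the deposited scale 80 of the 80 members tested were called higher in ASCs and 0 lower (0 also at an unadjusted p, and 0 by edgeR and DESeq2), beside 23.4% of all genes tested called higher and 23.8% lower. The ASC and FAP libraries did not overlap for any of the 80, nor for 72.2% of all genes tested (36.8% higher in ASCs and 35.4% lower), where 20% of the orders of 5 libraries would give no overlap. The median log2 fold change of the members was 1.11, with a range of 0.64 to 1.71, and that of all genes tested was 0.00. EdgeR and DESeq2 each called 79 higher, all but Rps27.

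Rps15a, a protein of the small subunit body, had the largest difference among members with a mean of at least 100. Its values were 5198, 4507 and 4578 in ASCs, 1647 and 1493 in FAPs, 4475, 4219 and 5214 in injured FAPs and 1977 in CD31+CD45+ cells. The ASC and injured FAP libraries lay in the same range, well above both FAP libraries. The log2 fold change was 1.60 (SE 0.12, limma adjusted p 2.11e-06) in ASCs against FAPs, higher in 3 of 3 ASC libraries.

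Rps12, a protein of the small subunit beak, read 4716, 5211 and 4784 in ASCs, 1883 and 1645 in FAPs, 4814, 4862 and 5453 in injured FAPs and 1926 in CD31+CD45+ cells. Rps3a1, of the small subunit platform, read 15162, 12547 and 12326 in ASCs, 5131 and 4647 in FAPs, 11372, 12079 and 13124 in injured FAPs and 4912 in CD31+CD45+ cells. In both, ASC and injured FAP libraries overlapped and both FAP libraries were the lowest of the 8. Their log2 fold changes in ASCs against FAPs were 1.48 (SE 0.10) and 1.44 (SE 0.12).

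Rpl22l1, the paralog of the large subunit protein Rpl22, read 651, 629 and 585 in ASCs, 227 and 203 in FAPs, 475, 508 and 699 in injured FAPs and 168 in CD31+CD45+ cells. All ASC libraries were above both FAP libraries, and injured FAP 3 was the highest library. The log2 fold change in ASCs against FAPs was 1.53 (SE 0.17). Rpl22 itself read 3355, 3144 and 3063 in ASCs, 1789 and 1764 in FAPs, 3657, 3835 and 4137 in injured FAPs and 2106 in CD31+CD45+ cells, with a log2 fold change of 0.84 (SE 0.09).

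The smallest differences in ASCs against FAPs were those of Rps4l, Rps27, Rplp1 and Rpl39l. Rps4l, an annotated pseudogene, read 516, 702 and 531 in ASCs, 419 and 327 in FAPs, 583, 543 and 384 in injured FAPs and 767 in CD31+CD45+ cells. The difference was 0.64 on the log2 scale (SE 0.21, limma adjusted p 0.0214), and it was not called without ASC 2 (0.50) or FAP 2 (0.46). FAP 1 and ASC 1 were close together, so the groups stood apart by little.

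Rps27, a zinc finger protein of the small subunit, read only 77.7, 64.6 and 56.5 in ASCs, 34.2 and 48.0 in FAPs, 33.7, 43.4 and 44.2 in injured FAPs and 143 in CD31+CD45+ cells. The FAP and injured FAP libraries overlapped, and ASCs lay above both. Because of the sequence shared with Rps27rt, these values are uncertain as a level of the gene. ASCs against FAPs gave a log2 fold change of 0.68 (SE 0.27, limma adjusted p 0.0484). It was not called without ASC 1 (0.56), without ASC 2 (0.70), without FAP 1 (0.45) or, at 0.68, without any of the 3 injured FAP libraries, which enter through the shared spread.

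Rplp1 read 21756, 22620.4 and 15952 in ASCs, 13019.7 and 11705 in FAPs, 25929, 22251 and 25317 in injured FAPs and 9978 in CD31+CD45+ cells. ASC 3 lay nearest to the FAP libraries. Its log2 fold change was 0.69 (SE 0.16, limma adjusted p 0.00366) in ASCs against FAPs, and under quantile normalization it was -0.01. Rplp0, used under the name 36B4 as a reference gene in the study's primer list, read 40054, 33923 and 32857 in ASCs, 16062 and 14186 in FAPs, 40017, 36649.9 and 37719 in injured FAPs and 13462 in CD31+CD45+ cells.

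FAP libraries were the lowest of the 8 for Rplp0, and ASC and injured FAP libraries overlapped. Rplp0 had a log2 fold change of 1.23 (SE 0.13) in ASCs against FAPs and 1.34 (SE 0.13) in injured FAPs against FAPs, both above the median member on the deposited scale. Rplp2, the partner of Rplp1 in the stalk, had values of 4696, 4049 and 4008 in ASCs, 2027 and 1934 in FAPs, 5593, 5085 and 6408 in injured FAPs and 2571 in CD31+CD45+ cells. Its log2 fold changes were 1.10 and 1.52, with no overlap of either group with FAPs.

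The size of the difference rested on the scaling of the libraries, while among the 3 scalings its sign changed for Rplp1 alone. With each library divided by its total, the median of all genes tested in ASCs against FAPs moved to -0.56 and that of the members to 0.54, with 34 members called higher and 0 lower (0 lower at an unadjusted p), beside 11.7% and 46.4% of all genes. Under quantile normalization the medians were -0.01 and 0.60, with 42 members higher and 0 lower (0 lower at an unadjusted p), beside 22.4% and 22.1% of all genes. Relative to the median of all genes, the median member stood at 1.11 on the deposited scale (2.15-fold), at 1.10 with library totals and at 0.61 under quantile normalization (1.53-fold). Library totals shift all genes of a library alike, so by arithmetic they leave this difference nearly unchanged, here and below. In bulk samples, fewer cells of a type and less RNA per cell cannot be told apart.

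Abundant genes in general were shifted too, and 74 of the 85 members had a mean over 1000. A list chosen after the values were seen, of the 4129 other genes tested with a mean over 1000, had a median log2 fold change of 0.32 in ASCs against FAPs, with 1459 genes higher and 418 lower on the deposited scale, and of -0.25, with 699 higher and 1236 lower, with library totals. In injured FAPs against FAPs its median was 0.13, with 1149 higher and 862 lower, and with library totals 0.26, with 1382 and 723. In injured FAPs against ASCs it was -0.19, with 635 higher and 1388 lower, and with library totals 0.51, with 1914 and 639. Under quantile normalization the medians were -0.03, 0.02 and 0.04. That method gives every library the same distribution of values, which by itself leaves little difference between groups in a list chosen by abundance. Relative to all genes the medians were 0.32, 0.18 and -0.21 on the deposited scale, 0.31, 0.18 and -0.21 with library totals and -0.02, 0.08 and 0.01 under quantile normalization, so the change of sign with library totals is the shift of all genes.

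**Figure D3:**
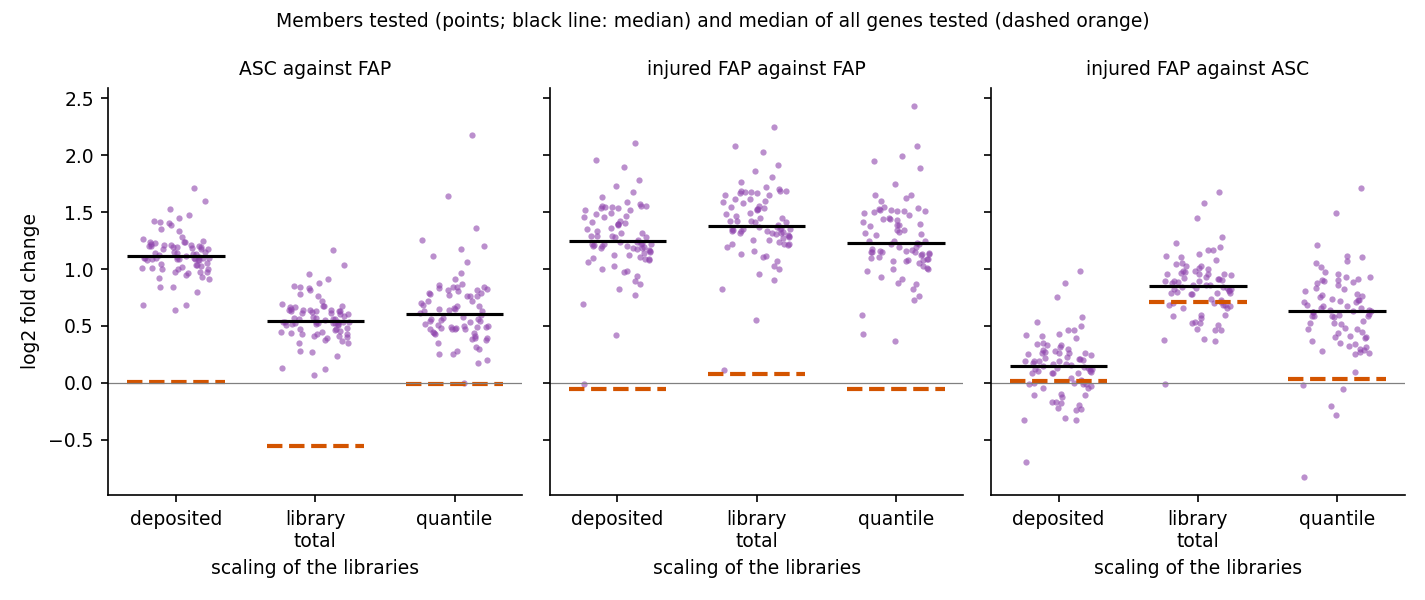
Log2 fold changes of the 80 members tested (points, black line at the median) under 3 scalings of the libraries, with the median of all genes tested as a dashed orange line. The members' median was above that of all genes in each panel, and Rplp1 in ASCs against FAPs lay at -0.01 under quantile normalization; in injured FAPs against ASCs the members' median was 0.15, 0.85 and 0.63.

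The comparison of injured FAPs with FAPs asks what glycerol injury changes in muscle progenitors within 1 day. It shares the FAP libraries with the comparison of ASCs with FAPs, so the values of both are given side by side and not as separate evidence. On the deposited scale 78 of the 80 members were called higher in injured FAPs and 0 lower (0 also at an unadjusted p, and 0 by edgeR and DESeq2), beside 24.9% and 27.7% of all genes. The groups did not overlap for 78 members and 84% of all genes tested (40.4% higher and 43.6% lower), where 20% of the orders would give no overlap. The median log2 fold change was 1.25, with a range of -0.01 to 2.11, and that of all genes was -0.05. EdgeR and DESeq2 each called 78 higher.

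The members called were higher under all 3 scalings here, and Rps27, which was not called, went from -0.01 to 0.12 and 0.43. With library totals, 78 members were higher and 0 lower (0 lower at an unadjusted p), beside 29.1% and 23.9% of all genes, with medians of 1.38 for the members and 0.08 for all genes. Under quantile normalization, 78 were higher and 0 lower (0 lower at an unadjusted p), beside 25.4% and 27.8%, with medians of 1.23 and -0.06. Relative to all genes the median member stood at 1.30, 1.30 and 1.28 under the deposited scale, library totals and quantile normalization, which is 2.46-fold on the deposited scale. The match between the deposited scale and library totals is again arithmetic. The large subunit had 47 of 47 members higher with a median of 1.28, and the small subunit 31 of 33 with 1.24. The pair not called was Rps27 and Rps4l.

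Rps27a encodes a fusion of ubiquitin with a small subunit protein. It read 3279, 3175 and 2801 in ASCs, 1217 and 1085 in FAPs, 4250.3, 5084 and 4083 in injured FAPs and 1483 in CD31+CD45+ cells. Injured FAPs were the highest, ASCs lay between and FAPs were the lowest, with no overlap among these 3 groups. The log2 fold change in injured FAPs against FAPs was 1.95 (SE 0.12, limma adjusted p 8.65e-07) and in ASCs against FAPs 1.42 (SE 0.12).

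Rps27l, a paralog of Rps27 and a known target of p53, read 440.0, 524 and 389 in ASCs, 237 and 206 in FAPs, 838, 713 and 938 in injured FAPs and 240.1 in CD31+CD45+ cells. None of its read-length windows occurs in another annotated gene. The injured FAP libraries stood above all others without overlap, and the ASC libraries above the FAP libraries. Its log2 fold changes were 1.02 (SE 0.16) in ASCs against FAPs, 1.90 (SE 0.16) in injured FAPs against FAPs and 0.88 (SE 0.15) in injured FAPs against ASCs.

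Rpl39l, a paralog of Rpl39 best known from testis, read 101.4, 104 and 82.9 in ASCs, 39.9 and 74.3 in FAPs, 217, 179 and 175 in injured FAPs and 17.3 in CD31+CD45+ cells. Injured FAPs were again the highest, and FAP 2 reached nearly to ASC 3. The log2 fold changes were 0.80 (SE 0.26, limma adjusted p 0.0224), 1.78 (SE 0.26) and 0.98 (SE 0.23, adjusted p 0.00379) in the same order of comparisons. Without FAP 1 the first was 0.36 and not called. None of its windows occurs in another gene.

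Rps2, of the small subunit near the mRNA entry, read 15238, 15818 and 11971 in ASCs, 7885 and 6647 in FAPs, 25971, 22823 and 23155 in injured FAPs and 5501 in CD31+CD45+ cells. Rpsa, the small subunit protein also described as a laminin receptor, read 32221, 32422 and 27026 in ASCs, 17391 and 13784 in FAPs, 46619.8, 44213 and 45838 in injured FAPs and 11050.3 in CD31+CD45+ cells. For both the order was injured FAPs, ASCs, FAPs and CD31+CD45+ cells, with no overlap. The log2 fold changes in injured FAPs against FAPs were 1.73 (SE 0.14) for Rps2 and 1.56 (SE 0.14) for Rpsa.

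Rpl34, of the large subunit, had the largest fitted log2 fold change of all members but few reads, with values of 43.5, 39.6 and 32.6 in ASCs, 8.56 and 14.1 in FAPs, 52.6, 49.6 and 50.3 in injured FAPs and 12.6 in CD31+CD45+ cells. Among the 8 tested libraries FAPs were the lowest and injured FAPs the highest, without overlap, and the CD31+CD45+ library lay in the range of FAPs. The log2 fold change was 2.11 (SE 0.30) in injured FAPs against FAPs and 1.71 (SE 0.30) in ASCs against FAPs, and 19.1% of its windows occur in a pseudogene.

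The smallest differences in injured FAPs against FAPs were those of Rps27, Rps4l, Rps29 (0.69) and Rpl10. Rps27 had a log2 fold change of -0.01 (limma adjusted p 0.969) and Rps4l 0.42 (SE 0.21, adjusted p 0.0985), which without injured FAP 3 was 0.60 and called. Rpl10, a late-joining protein of the large subunit, read 16142, 14704 and 15768 in ASCs, 7465 and 7078 in FAPs, 12018, 12489.7 and 12648 in injured FAPs and 5747 in CD31+CD45+ cells. On the deposited scale it was highest in ASCs and lowest in FAPs among the tested groups, with no overlap, while with library totals its log2 fold change in injured FAPs against ASCs was above 0 (0.37). On the deposited scale its log2 fold changes were 1.09 (SE 0.10) in ASCs against FAPs and 0.77 (SE 0.10) in injured FAPs against FAPs.

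The direct comparison of injured FAPs with ASCs shares all its libraries with the comparisons above. On the deposited scale 4 members were called higher, Rpl39l, Rps27l, Rps2 and Rpsa, and 1 lower, Rps27, beside 25% and 25.8% of all genes. The median log2 fold change was 0.15 (range -0.70 to 0.98) and that of all genes 0.02. The members' median was 0.09 without ASC 3, 0.23 without ASC 1 and 0.23 by edgeR. The groups did not overlap for 35 of the 80 members, beside 71.8% of all genes tested (10% of the orders of 6 libraries). At an adjusted p under 0.05 without the fold threshold 23 members were higher and 4 lower, beside 33.5% and 33.1% of all genes. EdgeR called 6 higher and 1 lower, and DESeq2 4 and 1.

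The log2 fold changes of those called were 0.98 for Rpl39l, 0.88 for Rps27l, 0.75 (SE 0.13) for Rps2, 0.58 (SE 0.12, limma adjusted p 0.00193) for Rpsa and -0.70 (SE 0.24, adjusted p 0.0259) for Rps27. Rpsa lay just past the threshold and was not called without ASC 3 (0.49), injured FAP 1 (0.56) or injured FAP 3 (0.58). Rps27 was not called without ASC 1 (-0.58) or injured FAP 1 (-0.57), which left 3 members called without injured FAP 1. Rps27a (0.53, SE 0.11) lay just under the threshold and was called without injured FAP 3 (0.59).

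This comparison turned on the scaling. With library totals 68 members were called higher and 0 lower (0 lower at an unadjusted p), beside 54.2% and 12.4% of all genes, and the median of all genes moved to 0.71 with that of the members at 0.85. Under quantile normalization 50 were higher and 1 lower, beside 25.2% and 25% of all genes, with medians of 0.63 for the members and 0.03 for all genes. Relative to all genes the median member stood at 0.13 on the deposited scale (1.10-fold), at 0.14 with library totals and at 0.60 under quantile normalization (1.52-fold). On the deposited scale 22 members had a fitted log2 fold change below 0, with library totals 1 and under quantile normalization 5. With library totals 21 of the 22 thus moved above 0, all but Rps27 (-0.01). Rps15a and Rps4x, from -0.04 and -0.11 to 0.66 and 0.59, were among those then called, and Rpl10 moved from -0.33 to 0.37.

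The next measure shows how members differ from the rest of the family whatever single factor scales a library. Quantile normalization applies no such factor, and the measure was not taken under it. Each library was divided by its median member and the fit repeated, a quantity chosen after the values were seen. In ASCs against FAPs limma called 0 members higher and 0 lower (6 and 4 at an unadjusted p; edgeR and DESeq2 were not run on it), beside 6.37% and 72.5% of all genes. For injured FAPs it called 3 higher and 2 lower against FAPs, beside 5.59% and 75.3%. Against ASCs it called 3 higher and 1 lower, beside 21.4% and 29%. The other members tested were not called in either direction. By construction the division centres the members and shifts all genes of a library by the same amount. The shares of all genes called here follow from that shift and do not measure how the members stand out.

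The members above the median member in injured FAPs against FAPs were Rpl34 (log2 difference 0.85, limma adjusted p 0.0338), Rps27a (0.69, 0.000386) and Rps27l (0.63, 0.00324), and those below it Rps27 (-1.27, 0.00167) and Rps4l (-0.84, 0.00317). Against ASCs they were Rpl39l (0.86, 0.0118), Rps27l (0.76, 0.000703) and Rps2 (0.63, 0.000373) above and Rps27 (-0.81, 0.0200) below. Single libraries or settings decided several of these. Rpl34 was not called without FAP 1, without any 1 of the 3 injured FAP libraries or with a pseudocount of 8, Rps27a without injured FAP 2, and Rps27l in the first of these comparisons without injured FAP 3. Against ASCs, Rps2 was not called without ASC 3, and Rpl39l and Rps27 without injured FAP 1, which left 2. In ASCs against FAPs 1 member was called without ASC 2 (Rps4l), FAP 1 (Rpl39l) or FAP 2 (Rpl34). The count in injured FAPs against FAPs was 5 without FAP 1, 6 without FAP 2 (with Rpl39l), 4 without injured FAP 1, 3 without injured FAP 2 and 4 without injured FAP 3, and against ASCs it was 3 without ASC 3.

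Some members passed the p threshold alone. Rplp1 lay below the median member in ASCs against FAPs (-0.46, SE 0.13, limma adjusted p 0.00668) and Rps15a above it (0.45, SE 0.12, 0.00298), both under the fold threshold. Rpl10 lay below it in injured FAPs against FAPs (-0.49, SE 0.12) and against ASCs (-0.44, SE 0.11). Rps29, a zinc-binding protein of the small subunit named after its values were seen, lay below it by the same measure (-0.57 and -0.44), and it was called in injured FAPs against FAPs without FAP 1, without injured FAP 3 or with a replicate block.

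**Figure D4:**
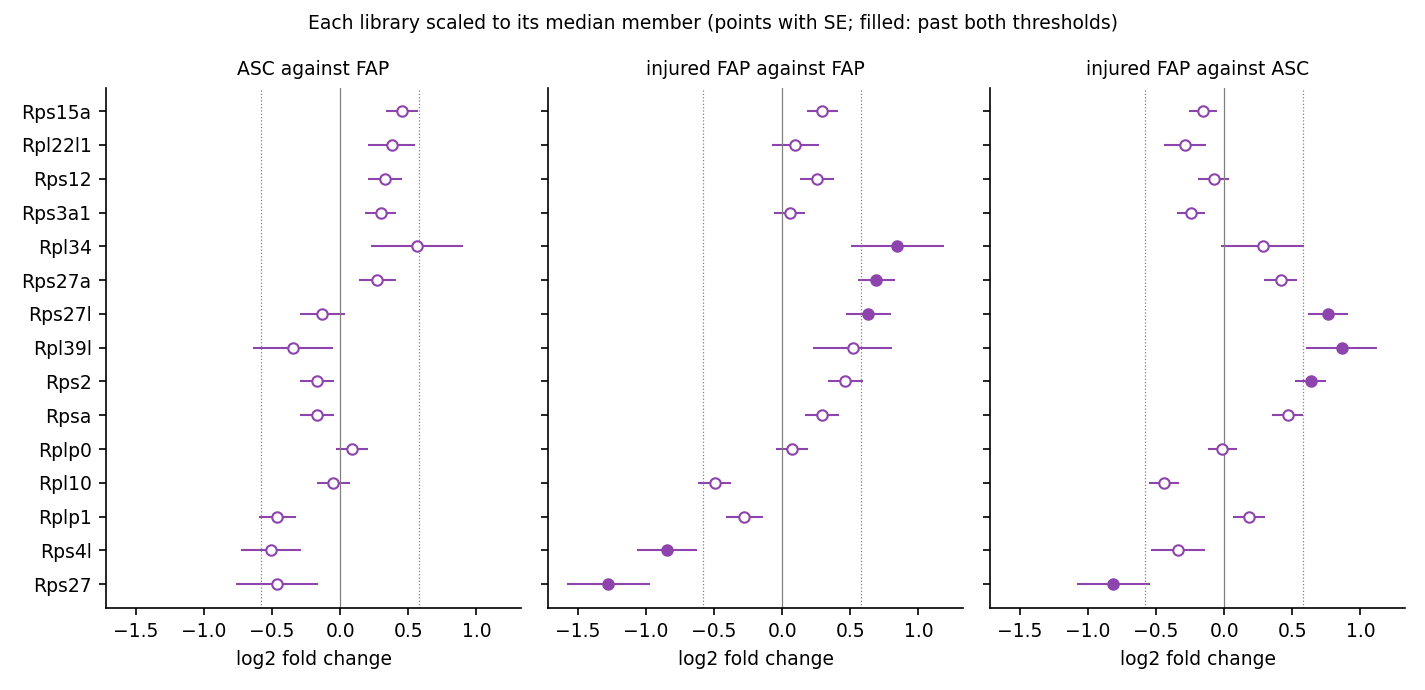
Log2 fold change of 15 named members after each library was divided by its median member (points with SE, filled where both thresholds were passed, dotted lines at a log2 fold change of 0.58 either way), for the 3 comparisons. Rps27l lay at 0.63 in injured FAPs against FAPs and 0.76 in injured FAPs against ASCs, and Rps27 at -1.27 and -0.81.

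A paralog as a percentage of its main copy does not depend on the size factor of a library. The log2 ratios tested hold a pseudocount of 1, so those of low genes depend a little on that factor. With a pseudocount of 8, the difference of Rpl39l over Rpl39 in injured FAPs against FAPs moved from 0.39 to 0.27. Of 7 pairs, 5 had both copies tested, which gave 15 two-sided exact permutation tests over libraries. The smallest p that 3 libraries against 3 or against 2 can give here is 0.1, and 0.214 after Benjamini-Hochberg adjustment over the 15 tests, so no ratio passed.

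Rpl22l1 was 19.4%, 19.99% and 19.1% of Rpl22 in ASCs, 12.7% and 11.5% in FAPs, 13.0%, 13.2% and 16.9% in injured FAPs and 7.97% in CD31+CD45+ cells. In mouse tissues the Rpl22 protein is known to repress Rpl22l1. ASCs were the highest without overlap, and injured FAP 3 stood apart from the other injured FAP libraries. The log2 ratio differed by 0.68 between ASCs and FAPs (exact p 0.1, adjusted 0.214), by 0.23 between injured FAPs and FAPs (exact p 0.3) and by -0.45 between injured FAPs and ASCs (exact p 0.1).

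The log2 ratio of Rps27l to Rps27 was 2.49, 3.003 and 2.76 in ASCs, 2.75 and 2.08 in FAPs, 4.59, 4.01 and 4.38 in injured FAPs and 0.75 in CD31+CD45+ cells. Injured FAPs stood above all other libraries. The differences were 1.91 from FAPs and 1.58 from ASCs (each exact p 0.1, adjusted 0.214), and the ratio carries the uncertain reads of Rps27.

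Rpl39l was 4.09%, 3.66% and 3.31% of Rpl39 in ASCs, 3.36% and 6.83% in FAPs, 7.26%, 6.76% and 5.25% in injured FAPs and 1.58% in CD31+CD45+ cells. The FAP libraries were far apart and spanned nearly the whole range, while ASCs and injured FAPs did not overlap (log2 difference 0.79, exact p 0.1). Rpl39 itself read 2481, 2849 and 2504 in ASCs, 1189 and 1088 in FAPs, 2995, 2647 and 3341 in injured FAPs and 1092 in CD31+CD45+ cells.

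Rps4l was 2.85%, 4.61% and 3.23% of Rps4x in ASCs, 5.72% and 4.64% in FAPs, 3.799%, 3.65% and 2.42% in injured FAPs and 9.92% in CD31+CD45+ cells. The difference between injured FAPs and FAPs in the log2 ratio was -0.67 (exact p 0.1). Rpl7l1, a relative of Rpl7, had a mean of 11.95% of Rpl7 in ASCs, 13.3% in FAPs and 11.04% in injured FAPs. Injured FAPs lay below FAPs without overlap (log2 difference -0.27, exact p 0.1, adjusted 0.214), and the ASC libraries overlapped both.

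Rpl3l, which replaces Rpl3 in striated muscle, read 0, 0 and 1.26 in ASCs, 1.90 and 0 in FAPs, 1.57, 0 and 0 in injured FAPs and 20.4 in CD31+CD45+ cells. It was at or below the value of 3 reads in all 8 tested libraries, while Rpl3 read 11248, 11032 and 9631 in ASCs, 5132 and 4658 in FAPs, 13926, 14438 and 15726 in injured FAPs and 5987 in CD31+CD45+ cells. No ratio was tested for this pair or for Rpl10l and Rpl10.

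**Figure D5:**
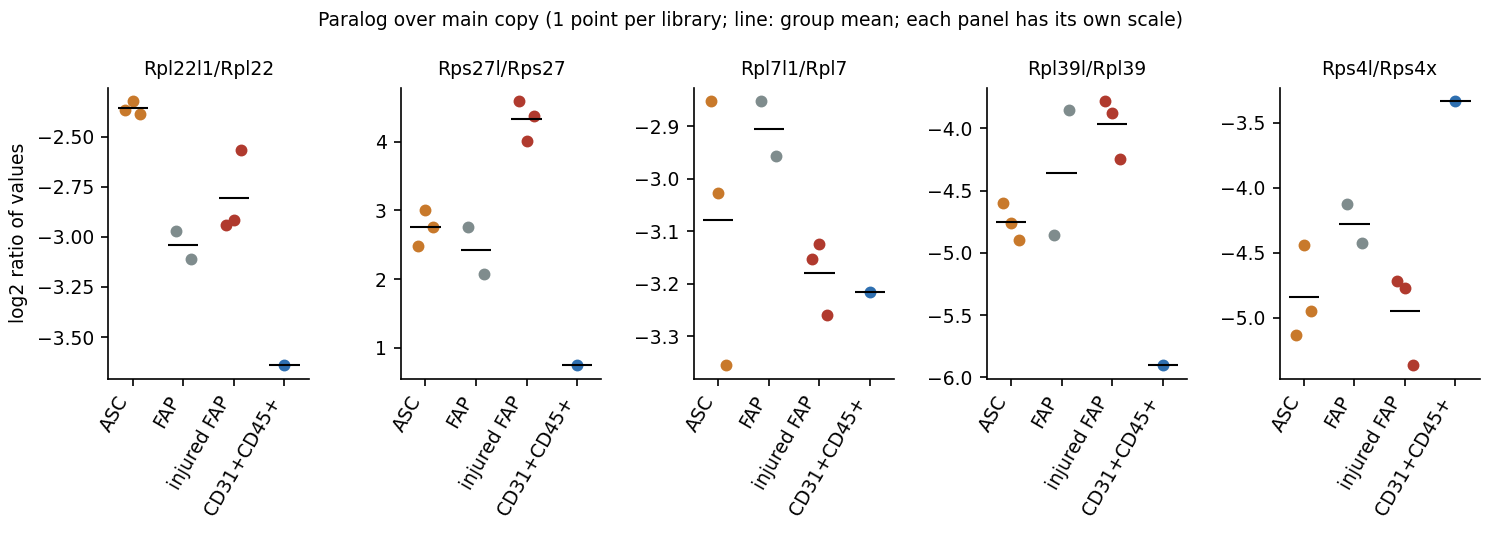
Log2 ratio of the deposited value of a paralog to that of its main copy in each library (points, line at the group mean), for 5 pairs, each on its own axis. Rpl22l1 over Rpl22 was highest in ASCs and Rps27l over Rps27 highest in injured FAPs. With so few libraries no difference could pass the exact test.

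Some genes of the same machine fall outside the choice by symbol. Rack1, a signalling scaffold on the small subunit, read 19373, 16609.7 and 15714 in ASCs, 7314 and 6589 in FAPs, 20064, 19117 and 20297 in injured FAPs and 8108 in CD31+CD45+ cells. Its log2 fold changes against FAPs were 1.31 (SE 0.12) in ASCs and 1.51 (SE 0.12) in injured FAPs, with FAPs the lowest libraries of the 8.

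Of 19 other mRNAs known to carry a TOP, mostly translation factors, 16 were higher and 0 lower in ASCs against FAPs (1 lower at an unadjusted p, 0 by edgeR and DESeq2, median 0.97). Against FAPs, 14 were higher and 1 lower in injured FAPs (median 1.21), and against ASCs 3 and 1 (median 0.24). All genes had 23.4% and 23.8%, 24.9% and 27.7%, and 25% and 25.8% called in these comparisons. With library totals the medians were 0.40, 1.34 and 0.94, with 7, 16 and 14 genes higher and 1, 0 and 0 lower (1 in each at an unadjusted p). Relative to all genes those medians stood at 0.96, 1.26 and 0.23. Under quantile normalization the medians were 0.51, 1.20 and 0.65. There 7, 14 and 12 were higher and 1, 1 and 0 lower (0 also at an unadjusted p in the last). Npm1, a nucleolar chaperone, read 9303, 7831 and 6631 in ASCs, 2475 and 2117 in FAPs, 14638, 16188 and 18209 in injured FAPs and 2182 in CD31+CD45+ cells. The 3 groups did not overlap, and its log2 fold changes were 1.78 (SE 0.15), 2.83 (SE 0.15) and 1.05 (SE 0.14).

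Tpt1, a small growth-related protein, was called lower in the direct comparison on the deposited scale. The median member stood at 0.15 there, with 22 of the 80 members below 0. Tpt1 read 58123, 46619 and 51113 in ASCs, 19253 and 17449.8 in FAPs, 23222, 22907 and 25774 in injured FAPs and 20663 in CD31+CD45+ cells. ASCs stood far above both muscle groups, and the log2 fold change in injured FAPs against ASCs was -1.11 (SE 0.12), or -0.41 with library totals. Pabpc1, the poly(A)-binding protein, was 1.53 (SE 0.16) in ASCs against FAPs, and Eef1g, a subunit of an elongation factor, 1.97 (SE 0.12) in injured FAPs against FAPs. Nap1l1, a histone chaperone, was 2.23 (SE 0.12) in injured FAPs against FAPs and 1.39 (SE 0.11) against ASCs.

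Of 25 listed regulators of TOP mRNAs, mTORC1 and Myc, 24 were tested. Between ASCs and FAPs 9 were higher in ASCs (37.5%) and 7 lower (29.2%), beside 23.4% and 23.8% of all genes (median log2 fold change 0.38). Injured FAPs had 8 higher and 4 lower than FAPs (33.3% and 16.7%, median 0.45), beside 24.9% and 27.7% of all genes. Against ASCs they had 3 and 5 (12.5% and 20.8%, median -0.05), beside 25% and 25.8%. With library totals 6 were higher and 10 lower (beside 11.7% and 46.4% of all genes), 12 and 4 (29.1% and 23.9%), and 14 and 3 (54.2% and 12.4%). The medians were -0.18, 0.58 and 0.65 with library totals and 0.23, 0.36 and -0.01 under quantile normalization. Relative to all genes they stood at 0.38, 0.50 and -0.07 on the deposited scale and 0.37, 0.50 and -0.07 with library totals. Under quantile normalization they stood at 0.24, 0.42 and -0.04 relative to all genes. The change of sign with library totals is thus the shift of all genes. Eif4e, which binds the mRNA cap, read 13110.3, 5709 and 7389 in ASCs, 1121 and 976 in FAPs, 2835, 2673 and 2969 in injured FAPs and 1193 in CD31+CD45+ cells. ASC 1 was the highest, and both FAP libraries the lowest of the 8. The log2 fold change in ASCs against FAPs was 2.97 (SE 0.27).

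Rps6ka1, a kinase of the RSK family, had a log2 fold change of -5.11 (SE 0.44) in ASCs against FAPs, with 18.4, 4.53 and 10.04 in ASCs against 329 and 405 in FAPs, and 90.2, 96.1 and 71.7 in injured FAPs. Sesn2, an inhibitor of mTORC1, was 2.47 (SE 0.28) in ASCs against FAPs and -1.72 (SE 0.25) in injured FAPs against ASCs. Ddit4, another inhibitor, was 1.59 (SE 0.23) in the latter. Mycn, of the Myc family, fell by 1.89 (SE 0.33) on the log2 scale in injured FAPs against FAPs. The activity of the pathway was not measured.

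Of 25 symbols listed for chaperones of ribosomal proteins and factors of late subunit maturation, 24 were in the table, and all 24 were tested. Zfp622 and Znf622 in that list are symbols of the same gene. Between ASCs and FAPs limma called 19 higher in ASCs and 0 lower (1 lower at an unadjusted p, 0 by edgeR and DESeq2, median 0.92). All genes had 23.4% and 23.8%. Injured FAPs had 16 higher and 0 lower than FAPs (0 lower at an unadjusted p, 0 by edgeR and DESeq2, median 1.01), beside 24.9% and 27.7% of all genes. Against ASCs they had 4 and 4 (median -0.06), beside 25% and 25.8%. With library totals 11 were higher and 2 lower, 17 and 0 (0 lower at an unadjusted p), and 13 and 1. The medians were 0.36, 1.14 and 0.64. All genes had 11.7% and 46.4%, 29.1% and 23.9%, and 54.2% and 12.4% with library totals. Under quantile normalization the medians were 0.87, 0.98 and -0.15. Relative to all genes the last of these medians was -0.08 on the deposited scale, -0.07 with library totals and -0.18 under quantile normalization. Grwd1, the chaperone of Rpl3, read 1304, 586 and 629 in ASCs, 138 and 148 in FAPs, 615, 580.5 and 593 in injured FAPs and 151 in CD31+CD45+ cells. ASC 1 stood above its group, and FAPs were the lowest of the 8. Its log2 fold change was 2.45 (SE 0.28) in ASCs against FAPs and 2.05 (SE 0.28) in injured FAPs against FAPs.

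Sbds and Efl1 release the factor Eif6 from the large subunit and differed in opposite directions between injured FAPs and ASCs. Sbds read 3749, 2364 and 2852 in ASCs, 1322 and 1261 in FAPs and 1093, 1001 and 1136 in injured FAPs, with a log2 fold change of -1.45 (SE 0.15) in injured FAPs against ASCs. Efl1 read 187, 304 and 279 in ASCs, 319.5 and 289.8 in FAPs and 495, 567 and 504 in injured FAPs, with 1.05 (SE 0.17). Neither pair of groups overlapped. Nmd3, the export adaptor of the large subunit, was 2.20 (SE 0.21) and the GTPase Gtpbp4 1.88 (SE 0.21) in ASCs against FAPs, and Pno1, of the small subunit, 2.10 (SE 0.20) in injured FAPs against FAPs.

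The 78 mitochondrial ribosomal proteins are the family most like the members in name and role, and they are set beside them by counts. Limma called 6 higher and 5 lower in ASCs against FAPs (median log2 fold change 0.04), beside 23.4% and 23.8% of all genes. Injured FAPs had 56 higher and 0 lower than FAPs (1 lower at an unadjusted p, 0 by edgeR and DESeq2, median 0.81), beside 24.9% and 27.7%. Against ASCs they had 51 and 0 (0 lower at an unadjusted p, 0 by edgeR and DESeq2, median 0.78), beside 25% and 25.8%. With library totals 1 was higher and 34 lower (1.28% and 43.6%) in ASCs against FAPs, beside 11.7% and 46.4% of all genes. Injured FAPs then had 64 and 0 against FAPs (29.1% and 23.9% of all genes) and 77 and 0 against ASCs (54.2% and 12.4%). Neither had a member lower at an unadjusted p. The medians were -0.53, 0.94 and 1.47, beside -0.56, 0.08 and 0.71 for all genes. Under quantile normalization the medians were 0.17, 0.81 and 0.66. Relative to all genes the deposited medians were 0.03, 0.86 and 0.76.

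Their share of the reads on genes was 0.0701%, 0.0930% and 0.0695% in ASCs, 0.112% and 0.107% in FAPs, 0.203%, 0.199% and 0.210% in injured FAPs and 0.127% in CD31+CD45+ cells. ASCs were the lowest of these groups, where for the cytosolic family FAPs were. A share depends on all other genes, and on the deposited scale the mitochondrial median in ASCs against FAPs was 0.04. The difference between the families was not tested. Mrps22, of the small mitochondrial subunit, read 93.5, 136 and 85.4 in ASCs, 112 and 114 in FAPs and 345, 342 and 379.8 in injured FAPs. Its log2 fold change was 1.64 (SE 0.20) against FAPs and 1.78 (SE 0.18) against ASCs, and ASCs and FAPs overlapped. The largest differences called in ASCs against FAPs were Mrpl32 (1.15), Mrps18b (1.05) and Mrpl22 (-0.95). In injured FAPs, Mrpl18 (1.67) and Mrps18b (1.53) stood beside Mrps22 against FAPs, and Mrps27 (1.72) and Mrpl22 (1.57) against ASCs.

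Subsets of the members by shared windows gave like medians. The 18 tested members with under 10% of windows in another gene, a subset chosen after the values were seen, had 18, 17 and 2 called higher and medians of 1.11, 1.23 and 0.18 in the 3 comparisons in the order above. The 27 with at least 50% had 27, 26 and 1 higher and medians of 1.13, 1.31 and 0.17. Of all genes tested, 23.4%, 24.9% and 25% were called higher in the same comparisons. The 71 with no named pseudogene in the table had medians of 1.10, 1.23 and 0.14, and the 9 with such a pseudogene had higher ones of 1.21, 1.52 and 0.33. Of the 6 tested named pseudogenes, 4 were higher against FAPs in each of the first comparisons, with medians of 1.12 and 1.31.

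Markers of cell types were summed per library beside these results. All 8 stromal markers were above 0 in every library, with Col1a1 the most abundant and sums of 3001590.0, 2768810.0 and 3181960.0 in ASCs, 1563300.0 and 1695780.0 in FAPs, 686894, 745950.0 and 670391 in injured FAPs and 64186 in CD31+CD45+ cells. Single markers did not all follow these sums: Pdgfra had means of 12988, 17755 and 24051 in ASCs, FAPs and injured FAPs (higher in injured FAPs against ASCs, log2 fold change 0.90), and Ly6a was higher in injured FAPs than in FAPs (0.81). All 4 markers of cell division, led by Mki67, were higher in injured FAPs against FAPs and against ASCs (median log2 fold changes 5.49 and 5.17). Their median between ASCs and FAPs was 0.26. Their sums were 314, 598 and 763 in ASCs, 273 and 631 in FAPs, 17786, 19136 and 19243 in injured FAPs and 863 in CD31+CD45+ cells. Markers of division were thus high in injured FAPs alone, and their part in the members' values was not tested.

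Leukocyte markers, with Cd68 the most abundant over the 8 tested libraries, summed to 469, 391 and 374 in ASCs, 259.6 and 485 in FAPs, 636, 2854 and 519 in injured FAPs and 31767 in CD31+CD45+ cells, and 6 of 8 (Ptprc, Lyz2, Cd74, Adgre1, Csf1r and Laptm5) were at 0 in both FAP libraries. Cd68 alone read 254 and 477 there. By this sum injured FAP 2 held the most of the 8 libraries, and its member share was the lowest of its group. Of the 7 leukocyte markers tested, 5 were called higher and 1 lower in injured FAPs against ASCs, beside 25% and 25.8% of all genes. The lower marker was Csf1r, with 163, 186 and 112 in ASCs and 38.4, 164 and 25.9 in injured FAPs. Its log2 fold change was -1.43 (limma adjusted p 0.0463). The 8 endothelial markers summed to 6555, 5162 and 6949.8 in ASCs, 6068 and 4213 in FAPs, 1776, 1884 and 1508 in injured FAPs and 287487 in CD31+CD45+ cells. Vwf, Emcn and Cldn5 were at 0 in both FAP libraries. Tek, the most abundant over the 8 tested libraries, read 5986, 4841 and 6700 in ASCs and 2120 and 1890 in FAPs, and it was higher in ASCs (log2 fold change 1.53), where Cdh5, Kdr and Flt1 were lower (-3.52, -2.81 and -4.40). The sums thus hide opposite differences.

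The 4 markers of smooth muscle and pericytes, with Cspg4 the most abundant over the 8 tested libraries, summed to 838, 434 and 375 in ASCs, 18082 and 15852 in FAPs, 8027, 7667 and 8137 in injured FAPs and 70555 in CD31+CD45+ cells. These sums were highest among the tested groups in FAPs, where the members were lowest, although Cspg4 itself read 3666 and 4176 in FAPs and 4655, 3881 and 4406 in injured FAPs. The 8 muscle fibre markers, with Tnnt3 the most abundant over those libraries, summed to 174, 123 and 159 in ASCs, 869 and 1019.8 in FAPs, 295, 301 and 233 in injured FAPs and 3787 in CD31+CD45+ cells.

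Sox10, a marker of Schwann cells, read 14.5, 20.4 and 8.79 in ASCs, 50.4 and 81.8 in FAPs, 33.0, 19.4 and 19.1 in injured FAPs and 402 in CD31+CD45+ cells. It was highest among the tested groups in FAPs without overlap, with a log2 fold change of -2.14 in ASCs against FAPs.

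The smallest lists differed as well. Of 3 satellite cell markers, with Pax7 the most abundant and at 0 in all ASC libraries, sums were 5.27, 4.53 and 0 in ASCs, 51.3 and 104 in FAPs, 42.4, 32.5 and 20.6 in injured FAPs and 403 in CD31+CD45+ cells. Myod1 ran against the sums between the muscle groups, with 10.5 and 14.1 in FAPs and 26.7, 19.4 and 14.5 in injured FAPs, and was not called there (limma adjusted p 0.458). The 4 adipocyte markers, led by Plin1, summed to 113, 96.3 and 109 in ASCs, 15.2 and 21.6 in FAPs, 6.28, 6.97 and 1.53 in injured FAPs and 14.1 in CD31+CD45+ cells, with Lep at 0 in all injured FAP libraries. The part of these cell types in the members' values was not tested.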

How the data were processed

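The authors filtered reads with fastq_illumina_filter, checked them with FastQC, aligned them to mm10 with HISAT2 and counted them per gene with featureCounts, and DESeq2 is named for differential expression. The deposited unit is a signal per gene and library, and 100% of the values were whole reads over a size factor (tolerance 0.01). On log2(value + 1), limma 3.58.1 (R 4.3.3) fitted 3 group means to 8 libraries (5 residual degrees of freedom) for the 13601 genes whose mean reached 10. The fold change on this scale understates low genes. EdgeR 4.0.16 and DESeq2 1.42.0 on recovered reads were alternatives, as were other pseudocounts, filters, scalings and libraries left out. Limma was tested on simulated data. GENCODE M21 gave annotation, and Python 3.11.15, numpy 2.4.6, pandas 2.3.3 and matplotlib 3.10.9 were used. The sum over the Schwann cell markers is not reported here. Members and lists were chosen with earlier results of these data known. Named members are, per comparison, the 4 largest differences each way among those called with a mean of at least 100, the paralog pairs, stalk proteins, Rpsa, the 3 highest and 3 lowest per kb and those at 0, and in other lists genes among the 3 largest called in a comparison.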

Additional observations from a re-analysis of the deposited data

Results flagged for a closer look

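In the CD31+CD45+ library, which entered no comparison, 3 members had a value above all 8 other libraries. Rps27 read 143 there, against 33.7 to 77.7 in the other libraries. Rps4l read 767, against 327 to 702. Rpl3l read 20.4, from 13 reads, against at most 1.90. There is 1 library of this kind, so its spread is unknown and these differences were not tested. The same library held the highest sum of muscle fibre markers, 3787, and the part of other cells in these values was not tested. Rps27 shares 98.2% of its read-length windows with Rps27rt, so its value is uncertain.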

How the results depend on the processing

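The scaling of the libraries changed the counts in both comparisons that involve ASCs. In ASCs against FAPs, 42 members were called, all higher, under quantile normalization (median log2 fold change 0.60), and 34, all higher, with library totals (0.54). In injured FAPs against FAPs the count was 78 under both, and library totals moved the median to 1.38. In injured FAPs against ASCs, 51 members were called under quantile normalization (50 higher, median 0.63), 68 with library totals (68 higher, 0.85) and 27 without the fold threshold (23 higher). The cause was not tested.

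Without 1 library at a time, 78 to 80 members were called in ASCs against FAPs, 78 to 79 in injured FAPs against FAPs and 3 to 5 in injured FAPs against ASCs (3 to 4 higher). For the departures from the median member the counts were 0 to 1, 3 to 6 and 2 to 4. Where FAPs were left with 1 library, it was assumed to vary like the other groups. Without the 100 most abundant other genes the member share was 3.33% in ASCs, 2.05% in FAPs, 4.71% in injured FAPs and 1.89% in CD31+CD45+ cells.

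Of 1224 values for 72 named member comparisons, 1151 kept their side of the threshold, 46 were no longer called, 23 were newly called with the same sign and 4 changed sign where the value was called under at least 1 of the settings: Rps15a in injured FAPs against ASCs at 0.66 with library totals, Rps4x there at 0.63 under quantile normalization and 0.59 with library totals, and Rplp1 in ASCs against FAPs at -0.0052 under quantile normalization. The cause was not tested. With the filter removed, Rpl30 and Rpl32l were also called higher in injured FAPs against FAPs, both chosen after their values were seen. Under that setting Rpl32l was also called in injured FAPs against ASCs (6 called), and Rps27 was no longer called in ASCs against FAPs (79 called).

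Replicate numbers did not pair libraries across groups: residual correlations lay between -0.123 and 0.123, with both signs among libraries of the same number. With a replicate block, 79, 78 and 5 members were called, and 0, 6 and 4 departed from the median member. The windows shared with other genes, the median member and the list of abundant genes were alternatives chosen after seeing the data.

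The methods tell of triplicates from a pool of 3 animals and do not say whether the libraries share it, and FAPs have 2 libraries. Few reads limit the precision of Rps27, Rpl34 and Rpl39l, and the cause of their low counts was not tested. Reads that match several genes were not resolved. The 0 of Rpl26 stays uncertain as a level of the gene, and its cause was not tested. Levels of mRNA do not give ribosome number or translation, which were not measured. Total RNA per cell is unknown, so a change in all genes at once cannot be seen on any of these scales.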
